A study of Nicotiana tabacum with 12 samples.

Results

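The gene hqt (LOC107772942) encodes hydroxycinnamoyl-CoA:quinate hydroxycinnamoyltransferase, the enzyme that joins an activated hydroxycinnamic acid to quinate in chlorogenic acid synthesis. It was followed in 12 leaf libraries of Nicotiana tabacum as 1 of 61526 genes in the deposited table, of which 39207 had enough counts to be tested. It was chosen by its measured counts, which were lower in the transgenic libraries than in untransformed plants, so its values against untransformed plants are a description and were given no test. Only its differences among the transgenic lines were tested. That comparison does not use the level of CK, but the choice drew on the line libraries as well. Lines that were all low were thus favoured, and the test is not independent of the choice.

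Chlorogenic acid is a caffeic acid ester of quinate and a major soluble phenolic of tobacco leaves. Phenylalanine ammonia-lyase (PAL), cinnamate 4-hydroxylase (CYP73A) and 4-coumarate:CoA ligase (4CL) make coumaroyl-CoA from phenylalanine, which the shikimate pathway supplies. A 3-hydroxylase of the CYP98A family adds the second hydroxyl group to a coumaroyl ester, and the shikimate transferase hct makes and opens such esters on the way to lignin. The flavonoid branch leaves from the same coumaroyl-CoA through chalcone.

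The plants were burley tobacco of cultivar TN90, a light air-cured type that lacks the full green colour of other tobaccos. The untransformed plants carry the label CK, and 3 transgenic lines, labelled P2.4a, P3.9a and also P9.10a, carry NtYb1, also called NtEGY2, a putative chloroplast metalloprotease gene, behind the 35S promoter, which is active in most tissues. Each group had 3 libraries that the labels call biological replicates. All plants grew in the field and upper leaves were frozen before maturity; the lines are segregants with green stems from primary transformants, so they were picked for a visible trait, and the labels give no count of plants per library. The treatment text gives the P3 plant another number than the sample titles, and groups here follow the titles; the same text goes on to a root inoculation, which the leaf samples do not have. No symbol matched the transgene, whose level was therefore not checked. Plant age and any treatment other than field growth are not stated for the groups.

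A CK library held 16657112 to 18444571 counts in total, a line library 13536964 to 16788583. P3.9a replicate 1 stood apart, at -77.4 on the first principal component against -26.5 to 40.3 for the other 11 libraries. The 10 leaf markers (light-harvesting proteins, PsbO, GAPA, GAPB and Rca) summed to 15673 to 17847 CPM (counts scaled to the library total) in CK and 13517 to 20525 in the lines. The root marker TobRB7 lay at 0.471 to 1.92 CPM over all libraries, and 4 flower markers summed to 48.2 to 52.0 CPM in CK and 31.1 to 64.8 CPM in the lines, with AG1 and GLO under 10 counts everywhere. The trichome marker NtABS lay at 62.3 to 68.8 CPM in CK and 61.2 to 136 CPM in the lines, 2 phloem markers summed to 166 to 211 CPM in CK and 195 to 235 CPM in the lines, and 8 dividing-cell markers summed to 183 to 221 CPM in CK and 201 to 275 CPM in the lines. None of these markers was called between the lines and CK in the edgeR fit of all libraries. The median log2 difference of the 8 dividing-cell markers was 0.43. Of these, cyclin (LOC107793085) lay at 16.4 to 17.4 CPM in CK and 22.0 to 33.8 CPM in the lines (edgeR adjusted p = 0.0652). DESeq2 called it, as did edgeR without P3.9a replicate 1. NtcycD3-1 mostly went the other way, from 28.6 to 34.0 CPM in CK. It had 37.8 CPM in P3.9a replicate 1 and 20.3 to 28.4 CPM in every other line library, below all CK libraries. H3 overlapped, at 89.6 to 129 CPM in CK and 83.8 to 160 CPM in the lines. The part of the markers in the values of hqt was not tested. In whole leaves, fewer cells of a type and less RNA per cell cannot be told apart.

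hqt was abundant enough to be counted closely in every library. In CK it had 1579, 2889 and 1934 counts in replicates 1, 2 and 3, or 96.8, 160 and 124 CPM after scaling. In P2.4a the levels were 83.8, 66.0 and 52.5 CPM, from 1294, 1058 and 830 counts. In P3.9a they were 58.6, 91.8 and 52.9 CPM, from 909, 1426 and 926 counts. CK replicate 2 was the highest library and P3.9a replicate 2 the highest of the lines. In P9.10a the levels were 79.8, 49.9 and 63.1 CPM, from 1355, 752 and 820 counts, and replicate 2 was the lowest of all libraries. The CK libraries did not overlap the line libraries.

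The gap between the groups was narrow at its edge. The lowest CK library, replicate 1, had 96.8 CPM with an exact Poisson 95% interval of 92.1 to 102, and the highest line library, P3.9a replicate 2, had 91.8 CPM with an interval of 87.1 to 96.7, so the intervals of these libraries overlapped. These intervals cover counting error only. All 9 line libraries lay below all CK libraries, as they did for 678 tested genes (1.73%); since hqt was chosen for this, nothing is read from it. Without the scaling between libraries the order at this edge was the same, with 94.8 CPM in CK replicate 1 and at most 92.1 CPM in the lines.

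**Figure D1:**
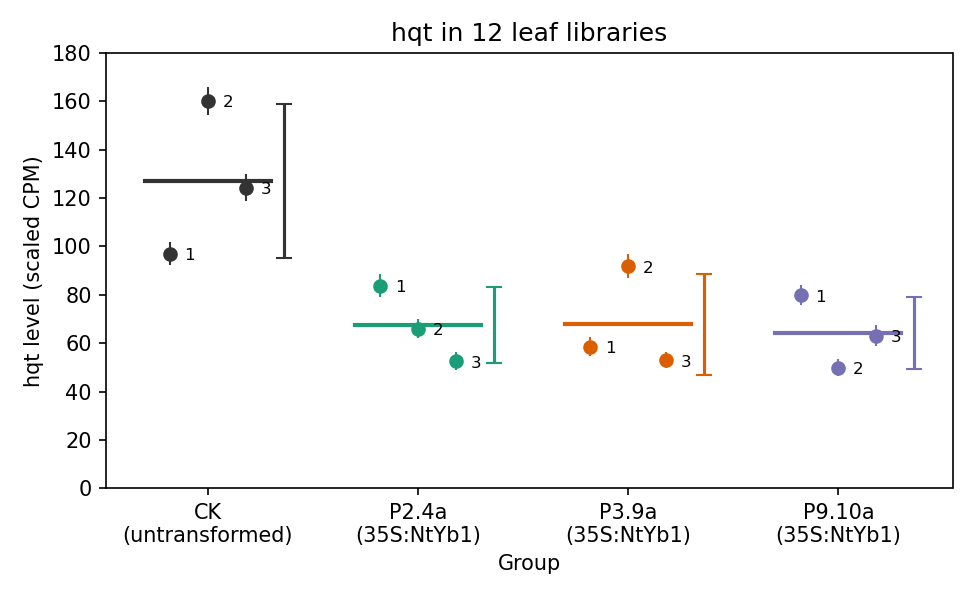
Level of hqt (scaled CPM, vertical axis) in each of the 12 libraries by group; numbers beside points are replicate numbers, thin bars are 95% counting intervals, horizontal lines are group means and capped bars the SD over 3 libraries. The CK libraries lie between 96.8 and 160 CPM and the 9 line libraries between 49.9 and 91.8 CPM.

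By group the order of the mean levels was CK at 127 ± 31.7 CPM (SD, n = 3), P3.9a at 67.8 ± 21.0, P2.4a at 67.4 ± 15.7 and P9.10a at 64.3 ± 15.0. The 3 lines lay within 1 SD of each other. The ratio of the mean level to that of CK was 0.533 for P3.9a, 0.531 for P2.4a and 0.506 for P9.10a. The fitted log2 difference of the mean of the lines from CK was -0.94 (SE 0.19), a level 1.91-fold lower. The differences of the single lines, which share the CK libraries, were -0.91 (SE 0.25) for P2.4a, likewise -0.91 (SE 0.25) for P3.9a, and -0.98 (SE 0.25) for line P9.10a.

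Libraries of the same group differed far more than counting error. The coefficient of variation was 24.98% for CK, 23.2% for P2.4a, 31.0% for P3.9a and 23.3% for line P9.10a, while the counting error of a library was between 1.86% and 3.65%. The biological coefficient of variation that edgeR estimated for hqt was 21.9%, against 16.1% for genes of its abundance. CK replicate 2 had both the largest total of counts and the highest level of hqt. Without it the difference of the lines from CK was -0.73 (SE 0.22), and without CK replicate 1 it was -1.10 (SE 0.21). Without P3.9a replicate 1, the library that stood apart, it was -0.90 (SE 0.21), and without both CK replicate 2 and P3.9a replicate 1, chosen after seeing the data, it was -0.70 (SE 0.22).

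**Figure D2:**
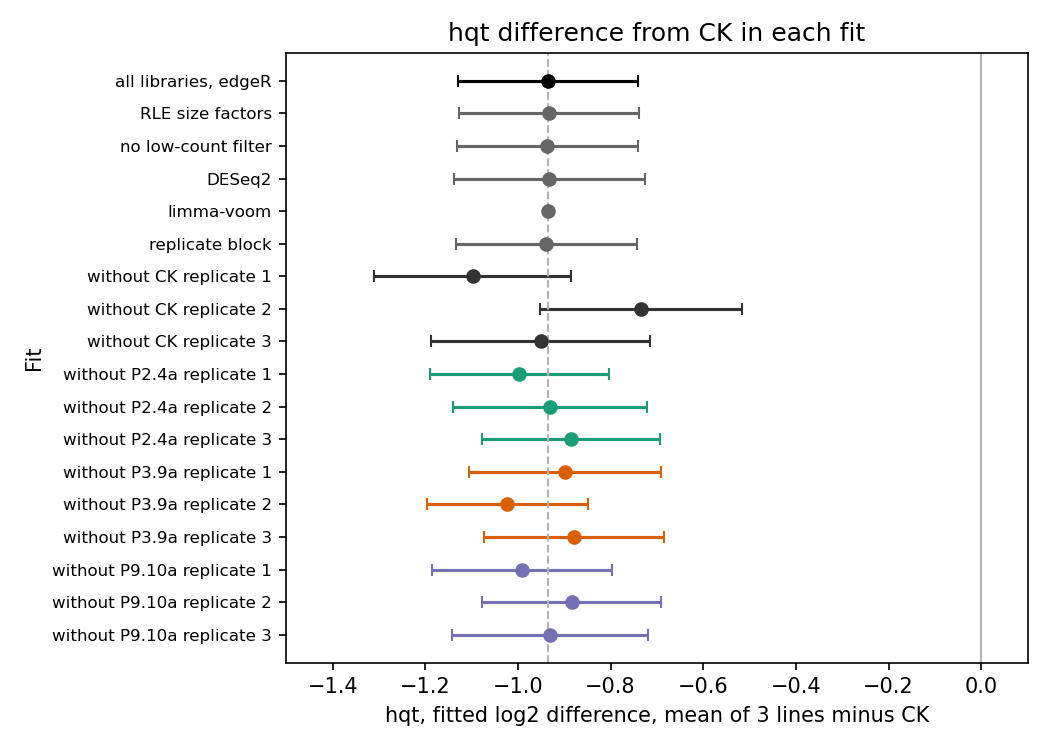
Fitted log2 difference of hqt between the mean of the 3 lines and CK (horizontal axis) in the fit of all libraries, under other scaling, filters and tools, and with each library left out; bars are the SE (limma-voom is drawn without one), the dashed line marks the fit of all libraries and the solid line 0. The lowest value is -1.10, where CK replicate 1 is left out, and the highest -0.73, where CK replicate 2 is.

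Over all genes the comparison of the 3 lines with CK called 15 of 39207 genes (0.0383%) at an edgeR adjusted p under 0.05, 3 higher (0.00765%) and 12 lower (0.0306%), and DESeq2 called 446; no call is read for hqt, which was chosen on this contrast. At an unadjusted p under 0.05 stood 4452 genes (11.4%). The count of 15 depended on single libraries: leaving out P3.9a replicate 1 gave 740, leaving out CK replicate 2 gave 48 and leaving out P9.10a replicate 2 gave 42. It gave 9 for P2.4a replicate 2 and for P9.10a replicate 1, 8 for P2.4a replicate 1 and 6 for CK replicate 1.

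The lines were then compared with each other, a test that does not use the level of CK. Since hqt was chosen for low levels in the line libraries, this test is not independent of that choice. A difference of hqt among the 3 lines was not detectable (edgeR F test, unadjusted p = 0.946, adjusted p = 1.00; exact permutation test over 1680 arrangements of the 9 libraries, p = 0.954, where the smallest possible is 0.00357). The same F test called 3 of 39207 genes (0.00765%). The log2 difference of P3.9a from P2.4a was 0.01 with a 95% interval of -0.53 to 0.55. That of P9.10a from P2.4a was -0.07 with an interval of -0.61 to 0.47, and that of P9.10a from P3.9a was -0.08 with an interval of -0.62 to 0.46. None of these 3 differences passed (edgeR adjusted p = 0.998, 1.00 and 0.999), where the same pairs of lines called 2 (0.0051%), 1 (0.00255%) and 2 (0.0051%) of all tested genes. With 3 libraries a line, differences inside these intervals are not excluded. The intervals are unadjusted and are not the limit of detection of the adjusted test, which could miss larger differences too.

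The genes around hqt in phenylpropanoid metabolism were read from lists of symbols that hold 56 genes besides hqt, 45 of them tested. None of the 45 passed in the comparison of the lines with CK, by edgeR, DESeq2 or limma (smallest edgeR adjusted p = 0.259). By sign 20 were higher and 25 lower, with a median log2 difference of -0.02, beside 0.00205 over all tested genes. At an unadjusted p under 0.05 stood 3 of the 45 (6.67%), beside 11.4% of all tested genes, and these 3 were lower and of the lignin branch. That count rested on single libraries: it was 0 with CK replicate 3 left out, 5 with CK replicate 2 or with P2.4a replicate 2 left out, and 8 with P3.9a replicate 1 left out. The median ran from -0.09 (P3.9a replicate 3 left out) to 0.06 (P3.9a replicate 1 left out), and it was also above 0 with P2.4a replicate 3 (0.02) or P9.10a replicate 2 (0.00604) left out. None of the 45 had its 9 line libraries all below CK or all above it, as 1.73% and 0.9% of all tested genes had. Against this stands the log2 difference of -0.94 for hqt, whose distance from the lists was not tested because hqt was chosen for its value.

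**Figure D3:**
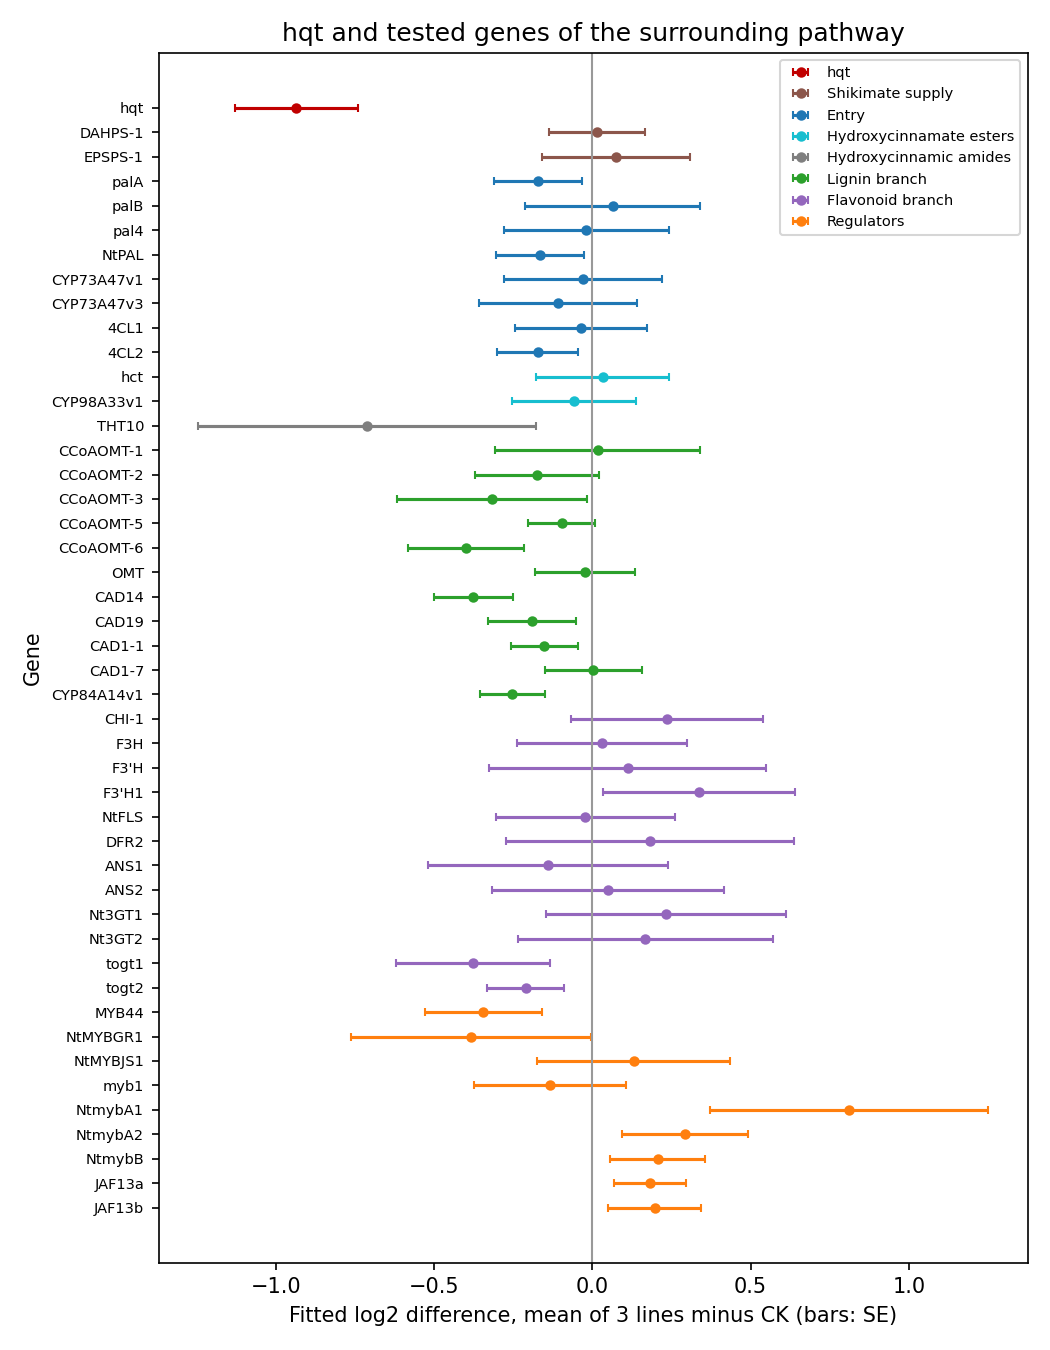
Fitted log2 difference between the mean of the 3 lines and CK (horizontal axis) for hqt and the 45 tested genes of the surrounding lists, coloured by list; bars are the SE. hqt lies at -0.94, and the other genes lie between -0.71 (THT10, 0 to 31 counts) and 0.81 (NtmybA1, 4 to 43 counts), each near the floor of counting.

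No gene of the supply and entry steps passed. Of the shikimate genes, DAHPS-1, the first enzyme of that pathway, had a log2 difference of 0.02 (SE 0.15) and EPSPS-1, the target of glyphosate, 0.08 (SE 0.23). Of the 10 entry genes 8 were tested, 1 higher and 7 lower by sign with a median of -0.07, and none passed. 4CL2 had a mean level of 54.5 ± 5.15 CPM in CK and 48.3 CPM in the lines (-0.17, SE 0.13, edgeR adjusted p = 0.655). palA stood at 342 ± 31.1 CPM in CK and 304 CPM in the lines (-0.17, SE 0.14, adjusted p = 0.682), and NtPAL at 298 ± 26.8 and 266 CPM (-0.16, SE 0.14, adjusted p = 0.699). The cinnamate hydroxylase genes CYP73A27 and CYP73A28 had at most 4 and 8 counts in a library and were not tested. The median of the entry list changed sign, to 0.03, without P3.9a replicate 1.

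The nearest relatives of hqt in the route are the shikimate transferase hct and the 3-hydroxylase gene CYP98A33v1. hct had a level of 20.2, 14.7 and 23.3 CPM in the CK libraries and 14.9 to 28.7 CPM in the lines, so the groups overlapped. Its log2 difference was 0.03 (SE 0.21, edgeR adjusted p = 0.969). CYP98A33v1 had 138, 128 and 119 CPM in CK and 63.6 to 175 CPM in the lines, where P3.9a replicate 1 was the lowest library and P2.4a replicate 2 the highest. Its log2 difference was -0.06 (SE 0.20, adjusted p = 0.937). Whether the counts of hqt hold reads of near-identical copies in this allotetraploid could not be judged, since the sources used here give no counting rule.

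The lignin branch had the members with the smallest p. Of 12 genes 11 were tested, 2 higher and 9 lower by sign, beside 19739 higher and 19468 lower of all tested genes. Their median of -0.18 stayed between -0.24 and -0.12 with each library left out. CAD14, a cinnamyl alcohol dehydrogenase of monolignol synthesis, had 90.7, 83.8 and 105 CPM in CK and 58.1 to 89.5 CPM in the lines, a log2 difference of -0.38 (SE 0.12, edgeR adjusted p = 0.259). In 8 of 9 line libraries it lay below all CK libraries, a pattern whose share over all tested genes is not given here. CYP84A14v1, of the ferulate 5-hydroxylase family, stood at 21.5 ± 2.62 CPM in CK and 18.05 CPM in the lines (-0.25, SE 0.10, adjusted p = 0.367). CCoAOMT-6, a caffeoyl-CoA O-methyltransferase, stood at 10.9 ± 1.70 and 8.25 CPM (-0.40, SE 0.18, adjusted p = 0.431). None of the 3 passed.

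The flavonoid branch and the amide gene were uneven between libraries. Of 14 flavonoid genes 12 were tested, 8 higher and 4 lower by sign, with a median of 0.08. The glucosyltransferase genes togt2 and togt1, whose products act on hydroxycoumarins, had log2 differences of -0.21 (SE 0.12) and -0.38 (SE 0.24), and the flavonoid 3'-hydroxylase gene F3'H1 had 0.34 (SE 0.30). F3'H1 lay at 57.6 CPM in P3.9a replicate 1 and at 207 and 202 CPM in replicates 2 and 3 of the same line. THT10, a tyramine hydroxycinnamoyltransferase gene, had 0 to 31 counts and a log2 difference of -0.71 (SE 0.53), which was -0.47 with CK replicate 1 left out. The median of the flavonoid list ran from -0.00360 without P2.4a replicate 2 to 0.18 without P3.9a replicate 1.

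Of 14 genes with symbols of MYB, bHLH or LIM proteins 9 were tested, 6 higher and 3 lower by sign (median 0.18, or 0.08 with CK replicate 3 left out), and none passed. NtmybA1, a MYB gene known for cell cycle control, had the largest difference (0.81, SE 0.44, edgeR adjusted p = 0.513), from 0.742 ± 0.438 CPM in CK to 1.34 CPM in the lines. It was 0.42 with CK replicate 3 left out and 1.23 with CK replicate 2 left out. MYB44 had -0.34 (SE 0.19, adjusted p = 0.515) and JAF13a, a bHLH gene of the anthocyanin regulator family, 0.18 (SE 0.11, adjusted p = 0.592). The anthocyanin regulators An1a, An1b and An2 had at most 1 count in a library. NtMYBJS1, known as a jasmonate-induced activator of phenylpropanoid genes in tobacco cells and named here after its value was seen, had 0.13 (SE 0.30, adjusted p = 0.908).

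Among the 3 lines none of the 45 genes passed (edgeR F test, smallest adjusted p = 1.00; DESeq2 and limma also called 0). At an unadjusted p under 0.05 stood 2 of them (4.44%), CCoAOMT-2 and JAF13a, beside 2.89% of all tested genes.

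The libraries that were lowest and highest for the most pathway genes were not those lowest and highest for hqt. P3.9a replicate 1 was the lowest of the 12 libraries for 25 of the 45 genes, while hqt ranked 9th from the top there. The median of the entry genes in that library lay 0.96 below their means on the log2 scale (-0.96), that of the flavonoid genes at -1.17 and hqt at -0.38. P2.4a replicate 2 was the highest library for 19 of the 45 genes, and hqt ranked 7th there, at -0.21 beside 0.53 for the entry genes. CK replicate 2, the highest library for hqt at 1.06, was the highest for 0 of the 45 genes and had an entry median of 0.08. P9.10a replicate 2, the lowest library for hqt at -0.62, was the lowest for 0 of the 45 genes. Its medians of the entry (-0.33), flavonoid (-0.26) and shikimate genes (-0.22) were nonetheless the lowest after those of P3.9a replicate 1. Those of the lignin genes and the regulators were -0.09 and -0.06. In P3.9a replicates 1, 2 and 3, named after their values were seen, palB had 84.2, 293 and 261 CPM and pal4 had 154, 506 and 463 CPM, while hqt had 58.6, 91.8 and 52.9 CPM.

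**Figure D4:**
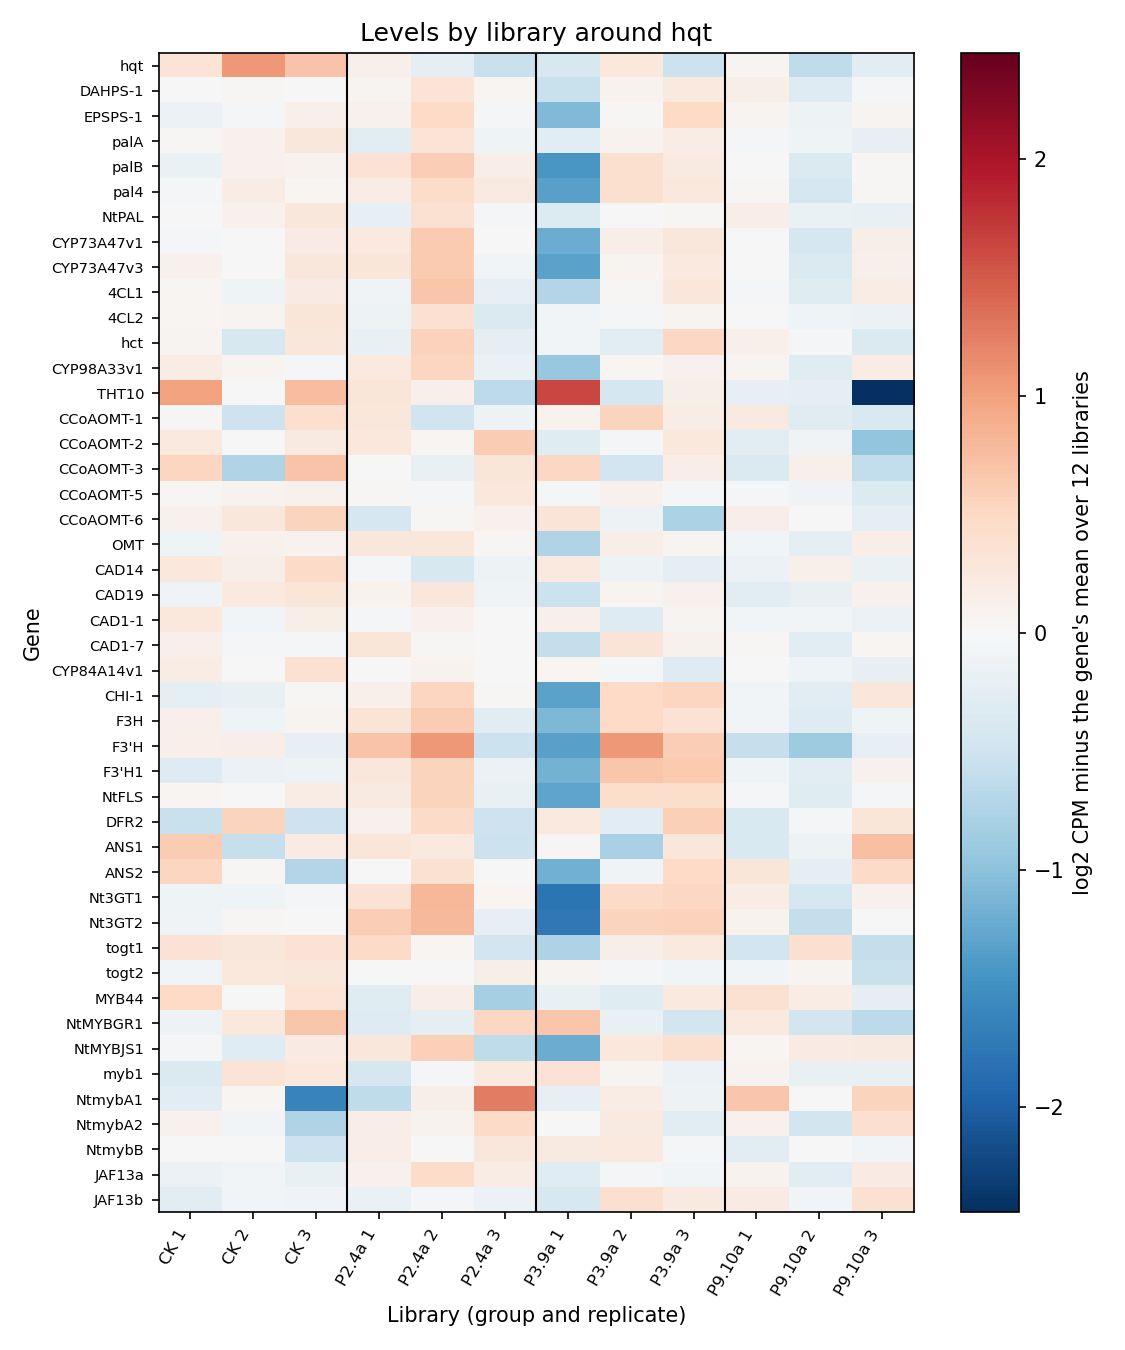
Levels of hqt (top row) and the 45 tested pathway genes in the 12 libraries, as log2 CPM minus each gene's mean over all libraries; black lines separate the groups. The top row is above its mean in the 3 CK libraries and, by less, in P3.9a replicate 2, P2.4a replicate 1 and P9.10a replicate 1. The column of P3.9a replicate 1 holds the lowest value for 25 of the 45 pathway genes.

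Likeness to hqt was measured as Pearson's r of log2 CPM over the 12 libraries, for 33204 genes with a mean log2 CPM of 1 or more. These values are a description without a test: the points share 12 libraries and the step between CK and the lines. Genes named for an extreme r tend to carry that step by this choice. Their differences from CK and adjusted p are therefore description too. Over all genes the median r was 0.00717, and 90% of the genes lay between -0.508 and 0.537. For the 37 pathway genes at this level the median was 0.236 and the range -0.365 to 0.567. None of the 37 reached 0.7, as 276 of the 33204 genes (0.831%) did. The highest pathway value was that of CYP84A14v1 (r = 0.567, Spearman's rho = 0.531), which was 0.506 without CK replicates 2 and 3, the libraries farthest from the median of hqt, and 0.0839 for deviations from the group means. Over the 37 genes the median r of such deviations was 0.214, beside 0.000616 over all genes. The range was wide, from -0.746 for CAD1-1 and -0.719 for CCoAOMT-3 to 0.487 for OMT. None of the 37 reached 0.7 by this measure, as 262 of all genes (0.789%) did. CYP98A33v1 had r = 0.270 and hct -0.221 over the 12 libraries.

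**Figure D5:**
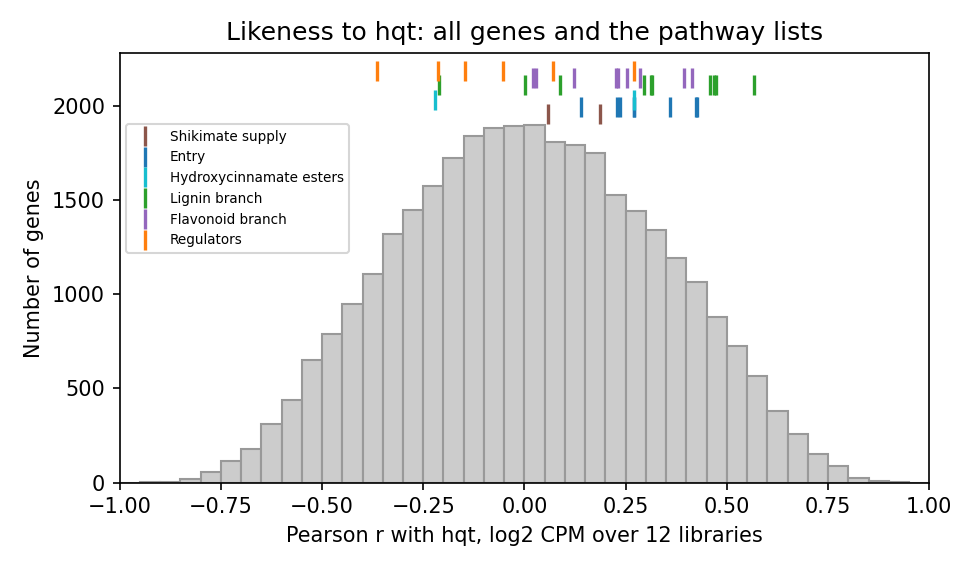
Number of genes (vertical axis) by Pearson r with hqt over 12 libraries (horizontal axis) in bins of width 0.05; coloured ticks above the bars mark the 37 pathway genes by list. The ticks lie between -0.365 and 0.567.

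The gene most like hqt was LOC107774389, which has no symbol. It had 4.29, 5.04 and 4.50 CPM in CK and 1.99 to 3.50 CPM in the lines, with r = 0.913 and rho = 0.958. Without CK replicates 2 and 3 r was 0.819, and over the 9 line libraries alone it was 0.742. Its log2 difference from CK was -0.68 (SE 0.16, edgeR adjusted p = 0.118). LOC107788871 (r = 0.906), LOC107814671 (0.901), LOC107812305 (0.893) and LOC107819743 (0.882) followed. LOC107812305 lay at 9.26, 27.1 and 17.1 CPM in CK and 1.77 to 9.13 CPM in the lines, so that, as with hqt, CK replicate 2 was the highest and the edge between the groups was narrow (-2.24, SE 0.34, adjusted p = 0.0570).

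Among genes with a symbol the most alike was CYP81B2v1, a cytochrome P450 gene, at 5.21, 6.49 and 6.17 CPM in CK and 2.45 to 5.01 CPM in the lines. It had r = 0.875, 0.798 without CK replicates 2 and 3 and 0.768 for deviations from the group means. Its log2 difference was -0.56 (SE 0.19, edgeR adjusted p = 0.261). ASF-1/G13 (r = 0.763), TVDE1, the violaxanthin de-epoxidase of the xanthophyll cycle (0.757), IPS, an inositol phosphate synthase gene (0.751), and NtMFP (0.750) came next. For deviations from the group means their r was lower, at 0.292, 0.648, 0.361 and 0.461 in the same order. Of these, IPS stood at 3091 ± 305 CPM in CK and 1430 to 2909 CPM in the lines, with CK at 2743 CPM or more, so its groups overlapped, and its log2 difference was -0.65 (SE 0.15, adjusted p = 0.118).

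The strongest opposite patterns were those of LOC107789478 (r = -0.911), LOC107816139 (-0.910) and LOC107805653 (-0.903). Among genes with a symbol they were eIF-4A-10, a translation initiation factor gene (-0.786), a gene with the symbol cyclin (-0.768) and POR1 (-0.753). For deviations from the group means r was -0.612 for eIF-4A-10, -0.438 for cyclin and -0.380 for POR1. This cyclin is the dividing-cell marker LOC107793085, and POR1 is a protochlorophyllide oxidoreductase gene of chlorophyll synthesis. POR1 stood at 12.8 ± 2.12 CPM in CK and 20.4 CPM in the lines (0.66, SE 0.16, edgeR adjusted p = 0.118).

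Within groups another order appeared. For deviations from the group means, which leave out the step between CK and the lines, LOC107824895 was most like hqt (r = 0.958), followed by LOC107830908 (0.928), LOC107780912 (0.907), LOC107800374 (0.907) and LOC107788871 (0.903). LOC107824895 differed little from CK in its mean, at 16.8 ± 1.71 CPM in CK and 15.3 CPM in the lines (-0.14, SE 0.10, edgeR adjusted p = 0.654). Among genes with a symbol CYP81B2v1 (0.768), TIP3 (0.7004), ACC (0.688), TVDE1 (0.648) and PKTL7 (0.647) led. CYP81B2v1, TVDE1 and LOC107788871 were thus named by both measures.

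The nearest genes on either side of hqt in the reference annotation that are in the count table each have 1 annotated gene in between, and neither passed. LOC107812005, an lncRNA gene, had 24 to 67 counts and a log2 difference of 0.03 (SE 0.27, edgeR adjusted p = 0.977). LOC107804509, a protein-coding gene, had 4.88 to 5.38 CPM in CK and 4.43 to 6.06 CPM in the lines, a log2 difference of -0.03 (SE 0.14, adjusted p = 0.962).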

How the data were processed

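The authors deposited whole-number read counts per gene for 12 libraries, not normalized. Per the submitters' processing notes, HISAT2 2.1.0, SAMtools and bedtools 2.25.0 were used; the sources used here do not give build, annotation, counting rule or strandedness of counting; per the labels' protocols the kit was directional. Names and neighbours come from a RefSeq table of assembly ASM71507v2, which held 49014 of 61526 identifiers and 1081 symbols; unmatched identifiers held 4.43% of counts. No coordinates are printed. No library pair held identical values (lowest chi-square per degree of freedom 5.20).

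All libraries were fitted with edgeR 4.0.16 in R 4.3.3 (TMM scaling, filterByExpr with a minimum count of 10, robust quasi-likelihood, 8 residual degrees of freedom, Benjamini-Hochberg at 0.05). Levels are CPM scaled by TMM; SE is the fitted log2 difference over the root of F; r used log2 CPM with a prior count of 2. limma 3.58.1 and DESeq2 1.42.0 were alternatives. The fit was tested on simulated data. P-values measure the spread between libraries of 1 field experiment.

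hqt, the lists and the tests were chosen with earlier results of these data known. List members were picked by symbol; symbols with more than 1 possible meaning (SK, DHS1, CS1) and chitinase genes matching CHI were left out. Named genes are the 3 smallest p of each list, the 5 highest and 3 lowest r, the same among genes with a symbol, the 5 highest r of deviations and the nearest genes. Relatives by protein sequence and levels per coding length were planned and are not analysed here, since no sequence table was at hand.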

Additional observations from a re-analysis of the deposited data

How the results depend on the processing

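The log2 difference of hqt from CK kept its sign in all 18 alternatives. With every line library below every CK library it could hardly do otherwise, so nothing is read from this. With each library left out the difference ran from -1.10 to -0.73, beside -0.94 (SE 0.19) in the fit of all libraries. It was -0.70 without both CK replicate 2 and P3.9a replicate 1. The adjusted p of hqt among lines stayed above 0.05 in all 18 alternatives (from 0.945 to 1.00 with a library left out). The choice of hqt favoured lines that were all low, and these fits reuse the same libraries, so nothing is read from this either. Pathway genes called stayed at 0 in both comparisons. The count of 15 genes called against CK was 82 without a low-count filter, 446 in DESeq2, 501 without both CK replicate 2 and P3.9a replicate 1, and from 6 to 740 with each library left out. The count of 3 genes called among lines was 45 in DESeq2 and from 2 to 6 with each library left out (6 without P3.9a replicate 3). The highest r, 0.913, ran from 0.876 to 0.934. Of the 42 other genes named by rule none was called; DESeq2 called LOC107774389, LOC107812305, IPS, cyclin and POR1, and edgeR without P3.9a replicate 1 called LOC107812305, ASF-1/G13, IPS, cyclin and POR1. LOC107812305 was also called by limma, and by edgeR with CK replicate 1 or with P9.10a replicate 1 left out, and cyclin without a filter. The genes called here were named for their r with hqt, which holds the step between CK and the lines, so nothing is read from their calls. The causes of the changes between fits were not tested.

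The groups share replicate numbers. With these as a block, 4 genes were called against CK, and hqt stood at -0.94. Deviations of same-numbered libraries correlated from -0.309 to 0.265, and 3 of 12 libraries correlated best with their own number. With 3 libraries a group this check cannot show whether same-numbered libraries share more than a number.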
